A study of Homo sapiens with 8 samples.

Results

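The 46 genes described here encode chaperones, disulfide isomerases, oxidases, prolyl isomerases and calcium binders of the endoplasmic reticulum (ER) and the early secretory pathway. They were taken by symbol from a list of gene names, by a rule that uses no measured value although the list was drawn up with earlier results of these data known. All 46 were found among the 60664 gene identifiers of the count tables. All 46 passed the filter on low counts at both labelling sites and were tested. They were divided by the known topology of their proteins into 5 transmembrane members (CANX and TMX1 to TMX4), 4 other membrane-spanning members (TXNDC11, DNAJC1, QSOX1 and QSOX2) and 37 lumenal members.

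The data came from APEX-seq, a method in which the peroxidase APEX2, anchored at one place in a living cell, attaches biotin to nearby RNA that is then recovered on streptavidin beads and sequenced. All libraries were from HEK293T, a transformed human embryonic kidney cell line, grown in serum-containing medium and expressing APEX2. In the NLS groups APEX2 carried a nuclear localization signal, and 2 labelled libraries were set against 2 unlabelled control libraries, all made with the SMARTer Stranded Total RNA kit and titled ribominus. In the OMM groups APEX2 sat on the cytosolic face of the outer mitochondrial membrane, and 2 labelled libraries were set against 2 unlabelled controls, all made with the TruSeq Stranded mRNA kit and titled trizol. The controls carried APEX2 too and lacked the labelling. The site of APEX2 therefore coincides with the kit and the kind of RNA selected, and these cannot be told apart. The series text names Proteinase K release for NLS and TRIzol extraction for OMM, while the sample labels give 1 column kit throughout, so how the RNA was released is unclear. Separate cultures are not named in the labels, so p-values here reflect only library-to-library spread within a group, which may be technical.

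Proteins that enter the secretory pathway fold in the ER with the help of the Hsp70 protein BiP, its J-domain partners and exchange factors, the lectin chaperones calnexin and calreticulin, and a large family of thioredoxin-like enzymes that form and rearrange disulfide bonds. Their mRNAs are translated by ribosomes that dock on the ER after the signal sequence, or the first membrane-spanning stretch, has left the ribosome. Calnexin and the TMX proteins keep such a stretch as an anchor in the membrane, whereas the lumenal proteins lose their signal sequence and are held in the ER by retrieval signals or by binding to other residents.

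The stretch that separates both kinds of protein can be read in the coding sequence, because codons with T as the second base encode the hydrophobic residues that build membrane-spanning segments. For each member the 20-codon window after codon 40 with the most such codons was taken from the principal GENCODE 29 transcript (GRCh38); capitals mark a T at the second codon position. The 5 transmembrane members are shown first, followed by CALU, HSPA5 and CALR as lumenal members for comparison.
CANX: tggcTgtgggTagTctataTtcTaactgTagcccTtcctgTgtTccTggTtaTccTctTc
TMX1: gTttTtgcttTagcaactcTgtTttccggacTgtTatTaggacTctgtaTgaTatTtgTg
TMX2: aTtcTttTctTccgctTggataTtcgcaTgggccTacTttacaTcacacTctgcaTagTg
TMX3: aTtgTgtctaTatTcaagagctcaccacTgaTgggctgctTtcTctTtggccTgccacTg
TMX4: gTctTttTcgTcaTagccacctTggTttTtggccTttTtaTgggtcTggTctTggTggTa
CALU: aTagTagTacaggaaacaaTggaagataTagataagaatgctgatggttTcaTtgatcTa
HSPA5: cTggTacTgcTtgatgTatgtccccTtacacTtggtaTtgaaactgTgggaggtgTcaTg
CALR: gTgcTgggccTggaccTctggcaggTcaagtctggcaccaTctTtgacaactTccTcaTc
The windows of CANX (codons 482 to 501) and TMX4 (codons 190 to 209) held 14 and 16 such codons of 20, against 8 in CALU, 11 in HSPA5 and 10 in CALR. Over the 5 transmembrane members the richest window held 11 to 16 codons of this kind (median 13), over the 4 other membrane-spanning members 10 to 14, and over the 37 lumenal members 7 to 11 (median 9). Protein-coding genes tested at NLS had a median of 10, so the transmembrane members lie above it and most of the lumenal members at or below it.

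Over the first 40 codons, where a signal sequence lies, the 2 classes were close, with medians of 10 for the transmembrane and 11 for the lumenal members. The start windows of CANX and of its soluble relative CALR show this.
CANX: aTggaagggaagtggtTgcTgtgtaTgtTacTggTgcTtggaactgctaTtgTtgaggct
CALR: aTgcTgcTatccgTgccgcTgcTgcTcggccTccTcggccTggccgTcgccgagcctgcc
These windows start at the ATG and hold 10 such codons in CANX and 11 in CALR, so by this measure the pair differs in the later window and not at the start.

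Library totals were 8039176 to 9531568 counts for NLS labelled, 20746393 to 21096586 for NLS control, 34705126 to 52421161 for OMM labelled and 35165227 to 41660431 for OMM control. Levels are given below as CPM, that is counts scaled to a common library total with the trimmed mean of M-values (TMM), and a log2 fold change is labelled over control from edgeR's quasi-likelihood fit. In edgeR's fits the NLS libraries had a biological coefficient of variation of 0.166, and the OMM libraries 0.958. The labels were checked against known RNAs: the nuclear RNAs NEAT1, MALAT1 and KCNQ1OT1 rose at NLS by 3.86, 2.31 and 4.14 on the log2 scale. The 7 mRNAs of the mitochondrial genome tested all fell at NLS. At OMM, which faces the cytosol, all 7 had both labelled libraries below both controls (log2 fold changes of -2.28 to -1.69). Of these 3 had an adjusted p under 0.05 by edgeR's test. The 4 genes listed as typical of HEK293 cells summed to 54.5 to 59.9 CPM in NLS labelled, 138 to 151 CPM in NLS control, 134 to 166 CPM in OMM labelled and 136 to 256 CPM in OMM control libraries. NEFM and NEFL made up most of each sum. The other 2, PAX2 and LHX1, were low and at 0 in the shallower OMM labelled and the shallower OMM control library. The 7 markers of other cell types summed to 5.40 to 7.68 CPM in NLS labelled, 8.001 to 9.37 CPM in NLS control, 1.57 to 4.49 CPM in OMM labelled and 13.01 to 26.5 CPM in OMM control libraries, with 6 of the 7 at 0 in every OMM library and the rest being COL1A1. Their part in the results was not tested. In these bulk libraries a level is a share of the RNA recovered, so fewer labelled cells and less labelled RNA per cell cannot be told apart.

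At NLS the ER folding genes as a group were depleted from the labelled RNA. Of the 46 members, 33 fell and 1, SIL1, rose at an adjusted p under 0.05 (edgeR quasi-likelihood test, Benjamini-Hochberg over 20858 genes). Of all genes tested 28.5% fell and 28.8% rose. Of 13856 protein-coding genes, to which all members belong, 5508 fell and 2686 rose. Both labelled libraries lay below both controls in 37 members, against 37.7% of all genes, and above both in 5, against 45.1%. Among the 13856 protein-coding genes 7008 lay below and 4342 above. Of the 46 members 6 had a positive log2 fold change, against 53.9% of all genes and 5560 of the 13856 protein-coding ones. DESeq2 called 1 member higher and 32 lower, all of edgeR's calls but FKBP9 (21.3% and 19.5% of all genes), and the authors' deposited table has the same counts at a p under 0.05 (22.1% and 20.2% of its genes). The median log2 fold change was -1.09 for the members, -0.26 for protein-coding genes and 0.14 for all genes. The summed counts of the members were 0.492% and 0.473% of the NLS labelled libraries, against 0.854% and 0.810% of the NLS controls. The scaling matters here: with library size alone the all-gene median became 0.66 and the member median -0.57. There 27 members were lower and 9 higher, against 3351 and 9122 of 20858 genes. Relative to the all-gene median the members stood at -1.22 under both scalings, TMM and library size alone. A change of scaling moves both medians nearly alike, so this equality is no test of stability. With other sets of genes the value was -0.92 (at least 10 counts in every library) and -0.83 (protein-coding genes only).

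At OMM the same genes leaned the other way. By edgeR CANX and CALU rose at an adjusted p under 0.05 and no member fell, where 0.139% and 0.0554% of 14438 genes rose and fell. Of the 46 members 34 had a positive log2 fold change, against 49.9% of all genes, and the median was 0.49 for the members, 0.02 for protein-coding genes and 0.00 for all genes. Both labelled libraries exceeded both controls in 22 members, against 21.3% of all genes, and lay below both in 9, against 22.5%. At an unadjusted p under 0.05, 17 members were higher and 3 lower, against 5.94% and 4.62% of all genes. The members took 1.98% and 1.52% of the counts of the OMM labelled libraries, against 0.916% and 1.00% of the OMM controls. With 1 library left out the number higher was 7 or 4 (without the shallower or the deeper OMM labelled library) and 5 or 3 (without the shallower or the deeper OMM control), and MANF was called lower without the deeper labelled one. The 2 calls were lost without robust estimation of the dispersion, where 0 members and 1 of 14438 genes were called. DESeq2, by contrast, called 16 members higher and 3 lower (6.72% and 5.87% of all genes). The 16 were CANX, CALU, TMX1, TMX3, TMX4, PDIA3, PDIA6, ERP44, TXNDC5, HSPA5, DNAJC3, DNAJC10, ERO1A, QSOX1, FKBP9 and RCN1, and the 3 were CNPY2, FKBP2 and PPIB. A call and an adjusted p below are edgeR's unless DESeq2 is named. The authors' deposited table has the same 16 members higher and the same 3 lower at a p under 0.05, where 6.53% and 5.7% of its genes passed.

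**Figure D1:**
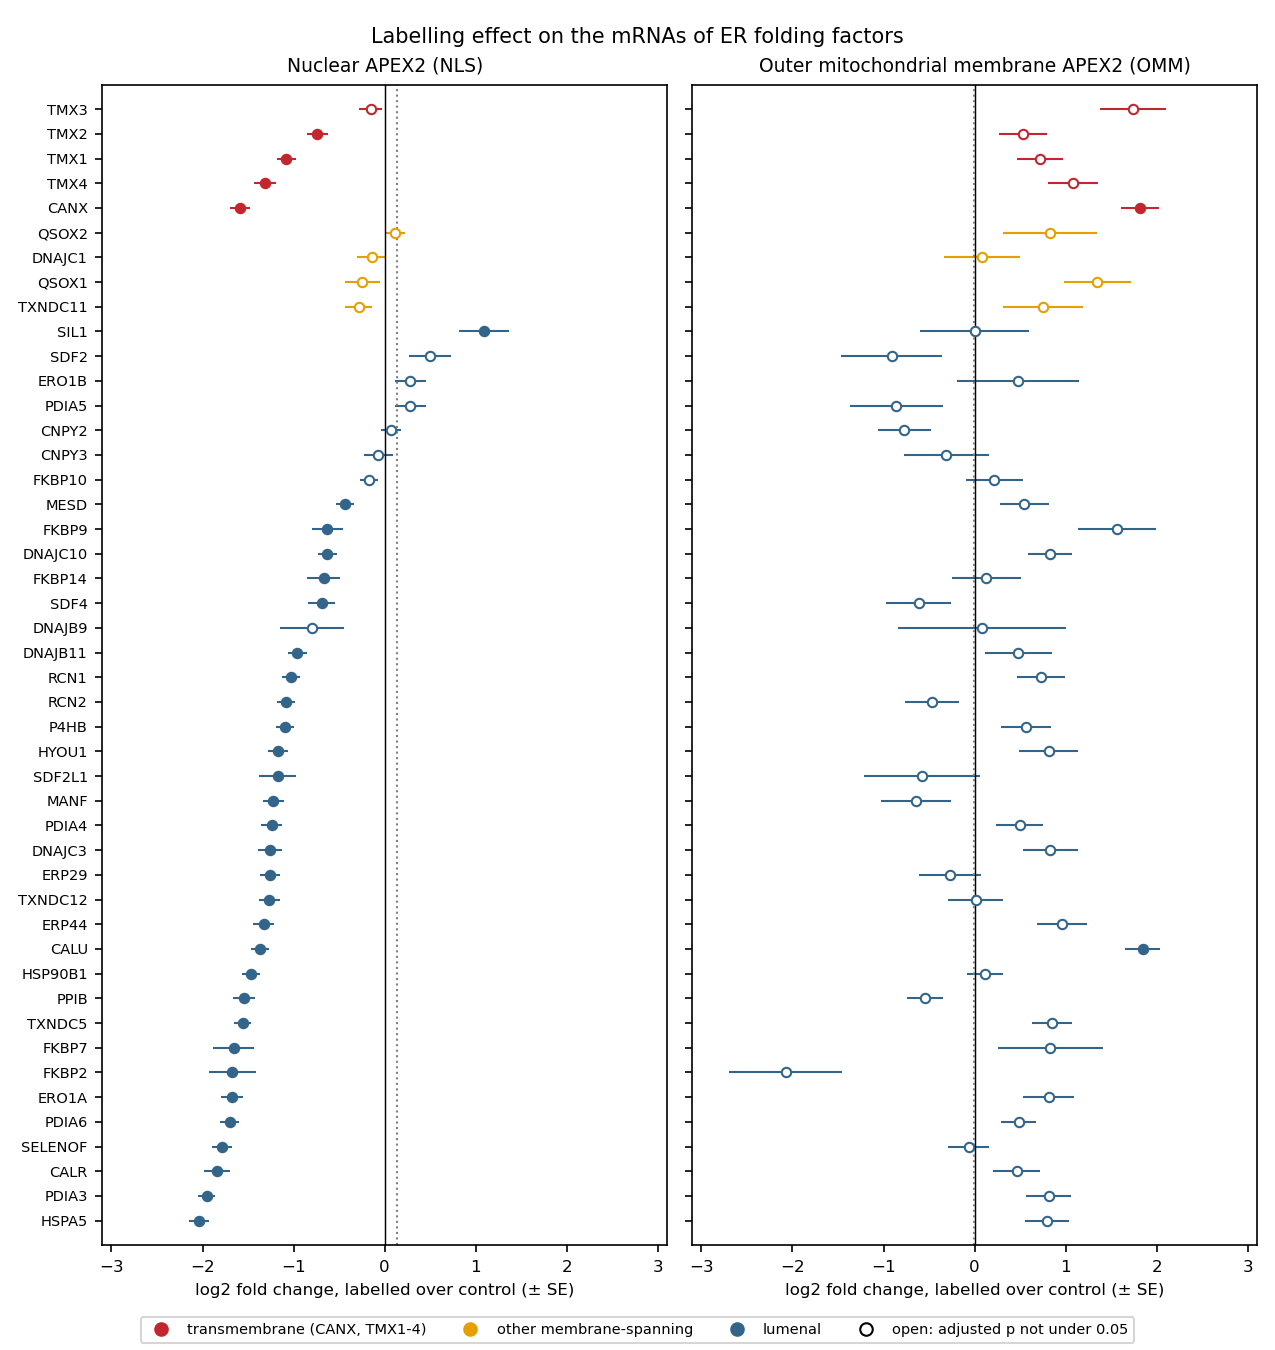
The log2 fold change of labelled over control with its standard error (x axis) is drawn for each of the 46 genes (rows) at NLS (left) and OMM (right), with colours for topology, filled points for an adjusted p under 0.05 by edgeR and a dotted line at the all-gene median. Filled points run to -2.04 for HSPA5 at NLS, where SIL1 alone is filled to the right of 0, and at OMM only CANX and CALU are filled.

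Calnexin, the membrane-bound lectin chaperone that holds newly made glycoproteins (CANX, chr5:179678628-179730925, plus strand, GRCh38), fell at NLS and rose at OMM. At NLS its level was 543 and 533 CPM in the labelled libraries, against 1722 and 1518 CPM in the controls. At OMM it was 5564 and 3938 CPM in the labelled libraries, against 1413 and 1288 CPM in the controls. The groups did not overlap at either site. Lack of overlap was common at NLS, where both labelled libraries exceeded both controls in 45.1% of all genes. They lay below both in 37.7%, and at OMM the shares were 21.3% and 22.5%. The log2 fold change of CANX was -1.59 ± 0.11 at NLS (SE, adjusted p = 2.4e-05) and 1.82 ± 0.20 at OMM (adjusted p = 0.0316). The difference of the effects, NLS minus OMM, was -3.43 ± 0.27 (adjusted p = 0.0036), the largest in size of the 46.

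The TMX proteins are thioredoxin-related oxidoreductases anchored in the ER membrane. TMX1, which acts on membrane-bound clients, had 71.1 and 65.9 CPM in NLS labelled libraries, against 147 and 143 CPM in NLS controls, and 192 and 172 CPM in OMM labelled libraries, against 100.2 and 122.0 CPM in OMM controls. TMX2 had 45.0 and 44.2 CPM in NLS labelled libraries, against 71.9 and 77.0 CPM in NLS controls, and 180 and 134 CPM in OMM labelled libraries, against 108 and 109.7 CPM in OMM controls. Both genes were below both controls at NLS and above both at OMM. TMX3 had 46.1 and 52.2 CPM in NLS labelled libraries, against 52.6 and 56.6 CPM in NLS controls, and 91.4 and 144 CPM in OMM labelled libraries, against 37.1 and 33.3 CPM in OMM controls. TMX4 had 36.8 and 38.4 CPM in NLS labelled libraries, against 86.9 and 99.8 CPM in NLS controls, and 174 and 242 CPM in OMM labelled libraries, against 90.0 and 106.7 CPM in OMM controls. The groups of TMX3 and TMX4 did not overlap at either site, although at NLS the gap of TMX3 was less than 1 CPM.

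At NLS the fall was -1.08 ± 0.10 on the log2 scale for TMX1, -0.74 ± 0.11 for TMX2 and -1.31 ± 0.12 for TMX4 (SE, adjusted p = 7.4e-05, 0.000925 and 7.5e-05). TMX3 was not called there, at -0.15 ± 0.13 (adjusted p = 0.33), and its value turned positive under 3 other settings given in the closing section, one of which, library size alone, called it higher (0.37). At OMM none of the 4 passed the threshold by edgeR, and DESeq2 called TMX1, TMX3 and TMX4 higher: edgeR's log2 fold changes were 1.74 ± 0.36 for TMX3, 1.08 ± 0.27 for TMX4, 0.71 ± 0.25 for TMX1 and 0.53 ± 0.27 for TMX2 (adjusted p = 0.13, 0.20, 0.35 and 0.54). The difference between the sites was called for all 4, at -1.91 for TMX3, -2.41 for TMX4, -1.82 for TMX1 and -1.29 for TMX2. TMX2 shares its strand and most of its span with the readthrough gene TMX2-CTNND1, whose identifier is absent from the counts. How reads from that gene were counted is not given, so the counts of TMX2 are uncertain.

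**Figure D2:**
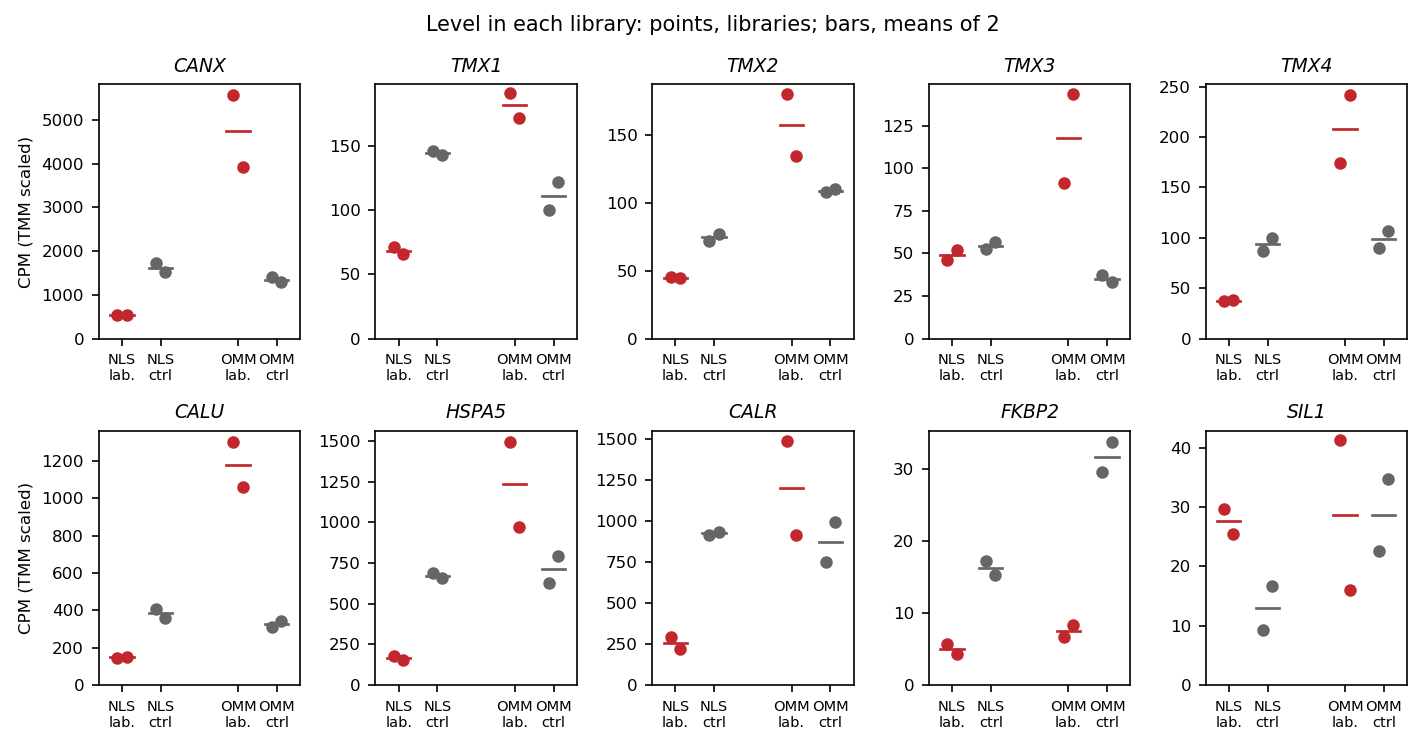
Levels in TMM-scaled CPM (y axis, from 0, a scale of its own in each panel) are drawn for each library of the 4 groups (x axis; lab., labelled; ctrl, control) for 10 genes, with points for libraries and bars for means of 2. CANX, TMX1 to TMX4 and CALU have both OMM labelled points above both controls, FKBP2 has both below at each site, and SIL1 has both NLS labelled points above both controls.

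Against the lumenal members, the transmembrane members stood near them at NLS and higher at OMM. At NLS the median log2 fold change was -1.08 over the 5 transmembrane members and -1.17 over the 37 lumenal ones. There 4 of 5 and 29 of 37 were called lower, against 28.5% of all genes and 5508 of 13856 protein-coding genes. At OMM the medians were 1.08 and 0.46. There all 5 transmembrane members and 15 of the 37 lumenal members had both labelled libraries above both controls, against 21.3% of all genes. Another 9 lumenal members had both below, against 22.5% of all genes. The 4 other membrane-spanning members had a median of -0.19 at NLS and 0.79 at OMM, and edgeR called no member of that class at either site. At OMM DESeq2 called 4 of the 5 transmembrane members higher, 11 of the 37 lumenal members higher and 3 lower, and 1 of the 4 others, QSOX1, higher. It called 6.72% of all genes higher and 5.87% lower. The authors' deposited table has the same counts by class at OMM at a p under 0.05. With all 9 membrane-spanning members pooled, the median was -0.29 at NLS and 0.83 at OMM. Members are not replicates, so the medians are given without a test. When the deeper of the 2 OMM labelled libraries was left out, the OMM medians were 1.302 for the transmembrane and 0.14 for the lumenal members. When the shallower one was left out, they were 0.83 and 0.53. The transmembrane median was the higher in both fits, but the size of the contrast depended on which labelled library was kept.

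The same contrast can be read within each library as a ratio of summed counts, which no scaling factor touches. The summed counts of the transmembrane members were 0.228 and 0.239 of those of the lumenal members in NLS labelled libraries, against 0.264 and 0.244 in NLS controls. In OMM labelled libraries the ratio was 0.473 and 0.478, against 0.221 and 0.204 in OMM controls. The OMM labelled libraries thus stood apart from the other 6, which lay between 0.204 and 0.264. CANX made up most of this sum. For TMX1 to TMX4 alone the ratio was 0.0611 and 0.0655 in NLS labelled libraries, against 0.0454 and 0.0484 in NLS controls, and 0.0486 and 0.0714 in OMM labelled libraries, against 0.0424 and 0.0457 in OMM controls. Without CANX the labelled libraries were therefore above the controls at both sites, and the 2 OMM labelled libraries differed more from each other than the lower one did from the controls. With 2 libraries a group an exact permutation test cannot reach 0.05, so none is given.

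Calnexin and calreticulin (CALR), the soluble chaperone with the same lectin fold, make the closest pair of membrane-bound and lumenal members. CALR had 292 and 221 CPM in NLS labelled libraries, against 914 and 931 CPM in NLS controls, and 1483 and 916 CPM in OMM labelled libraries, against 751 and 989 CPM in OMM controls. The NLS groups of CALR were apart (-1.84 ± 0.14, adjusted p = 3.3e-05) and the OMM groups overlapped (0.46 ± 0.26, adjusted p = 0.58). The count of CANX over that of CALR was 1.86 and 2.41 in NLS labelled libraries, against 1.88 and 1.63 in NLS controls. It was 3.75 and 4.30 in OMM labelled libraries, against 1.88 and 1.302 in OMM controls. The ratio overlapped between the groups at NLS and was higher in both labelled libraries at OMM.

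**Figure D3:**
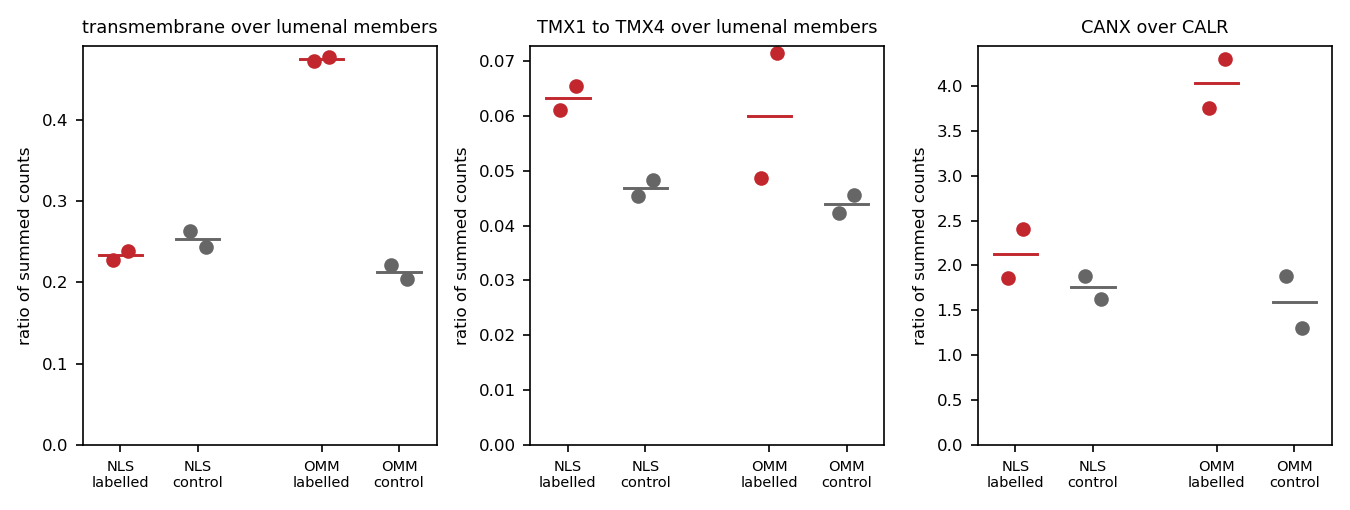
Ratios of summed counts (y axis, from 0) are drawn for each library of the 4 groups (x axis), for the 5 transmembrane over the 37 lumenal members, for TMX1 to TMX4 over the lumenal members and for CANX over CALR, with points for libraries and bars for means of 2. In the left and right panels the OMM labelled libraries, at 0.473 and 0.478 and at 3.75 and 4.30, lie above all 6 others.

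PDIA3, the disulfide isomerase that works with both lectins, completes the lectin cycle. It had 92.4 and 88.5 CPM in NLS labelled libraries, against 349 and 351 CPM in NLS controls, and 1008 and 623 CPM in OMM labelled libraries, against 458 and 469 CPM in OMM controls. Its groups did not overlap at either site, and its effect was -1.95 ± 0.09 at NLS (adjusted p = 1.8e-05) and 0.81 ± 0.25 at OMM (adjusted p = 0.27), where DESeq2 called it higher. All 3 lectin-cycle members fell at NLS, and all 3 differed between the sites, by -3.43 for CANX, -2.79 for PDIA3 and -2.34 for CALR.

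The Hsp70 cycle held 12 members, of which 8 fell and 1 rose at NLS. At OMM edgeR called none, and DESeq2 called HSPA5, DNAJC3 and DNAJC10 higher. HSPA5 encodes BiP, the Hsp70 protein of the ER lumen. It had 177 and 151 CPM in NLS labelled libraries, against 690.2 and 657 CPM in NLS controls, the largest fall of the 46 members at -2.04 ± 0.11 (adjusted p = 1.8e-05). At OMM it had 1495 and 972 CPM in labelled libraries, against 628 and 796 CPM in controls (0.79 ± 0.24, adjusted p = 0.28), again without overlap. HSP90B1, the ER member of the Hsp90 family, had 449 and 455 CPM in NLS labelled libraries, against 1270 and 1224 CPM in NLS controls. At OMM it had 1101 and 943 CPM in labelled libraries, against 1067 and 827 CPM in controls. Its groups were apart at NLS (-1.46 ± 0.10) and overlapped at OMM (0.11 ± 0.20). The count of HSPA5 over that of HSP90B1 was 0.393 and 0.332 in NLS labelled libraries, against 0.543 and 0.537 in NLS controls, and 1.36 and 1.03 in OMM labelled libraries, against 0.589 and 0.963 in OMM controls.

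SIL1, a nucleotide exchange factor of BiP, was the 1 member that rose at NLS. It had 29.7 and 25.4 CPM in NLS labelled libraries, against 9.20 and 16.7 CPM in NLS controls (1.09 ± 0.28, adjusted p = 0.011). At OMM it had 41.2 and 16.1 CPM in labelled libraries, against 22.5 and 34.7 CPM in controls, which overlapped. Its gene spans 346.8 kb, the longest of the 46, and on the other strand it overlaps MATR3 and the long noncoding RNA SNHG4. SNHG4 itself rose at NLS by 1.27 on the log2 scale, with means of 144 CPM in labelled and 59.7 CPM in control libraries, and MATR3 fell by 1.37. Whether the counting used the strand is not given in the sources used here, so the value of SIL1 is uncertain. HYOU1, the other exchange factor of BiP, fell by 1.17 at NLS.

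Among the J-domain proteins that pass clients to BiP, DNAJC1 spans the membrane. It had 36.2 and 31.8 CPM in NLS labelled libraries, against 33.8 and 41.4 CPM in NLS controls, and 60.7 and 44.2 CPM in OMM labelled libraries, against 60.4 and 38.7 CPM in OMM controls. Its groups overlapped at both sites. The lumenal J proteins DNAJB11, DNAJC3 and DNAJC10 fell at NLS, by 0.96, 1.26 and 0.63, while DNAJB9 was not called there (-0.80, adjusted p = 0.083). DNAJC3 and DNAJC10 stood at 0.83 each at OMM, called by DESeq2 and not by edgeR. Of the rest, MANF and SDF2L1 fell at NLS by 1.22 and 1.17, and SDF2 was at 0.50 without a call.

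Of the 14 disulfide isomerases 11 fell and none rose at NLS. The difference between the sites was called for 11 of the 14, all lower at NLS, a set that holds TMX3 and lacks ERP29 where the first holds ERP29 and lacks TMX3. P4HB, the founding member of the family and a subunit of prolyl hydroxylase, had 235 and 209 CPM in NLS labelled libraries, against 465 and 483 CPM in NLS controls. At OMM it had 989 and 547 CPM in labelled libraries, against 487 and 554 CPM in controls. It fell at NLS (-1.09 ± 0.10) and overlapped at OMM (0.56 ± 0.28). SELENOF, a thioredoxin-like selenoprotein bound to the glycoprotein glucosyltransferase, had the largest fall of this class, with 34.5 and 38.3 CPM in NLS labelled libraries, against 125 and 127 CPM in NLS controls (-1.79 ± 0.11). At OMM SELENOF had 203 and 196 CPM in labelled libraries, against 229 and 189 CPM in controls, which overlapped.

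The other lumenal isomerases that fell at NLS were PDIA4, PDIA6, ERP29, ERP44, TXNDC5 and TXNDC12, at -1.70 to -1.24. At OMM their values ran between -0.27 for ERP29 and 0.96 for ERP44. EdgeR called none of them there, and DESeq2 called PDIA6, ERP44 and TXNDC5 higher. PDIA5 was not called at either site by edgeR or DESeq2, at 0.28 at NLS and -0.86 at OMM. TXNDC11, a membrane-spanning member, had 28.7 and 31.98 CPM in NLS labelled libraries, against 35.2 and 38.7 CPM in NLS controls, and 64.5 and 50.6 CPM in OMM labelled libraries, against 25.8 and 42.6 CPM in OMM controls. Its groups did not overlap at either site, and neither difference passed the threshold (-0.29 at NLS, 0.75 at OMM). TXNDC5 lies inside the readthrough gene BLOC1S5-TXNDC5, whose means of 743 CPM in OMM labelled and 417 CPM in OMM control libraries were close to its own, so the pair cannot be counted apart.

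The 4 sulfhydryl oxidases, which supply the disulfide bonds, gave 1 that fell at NLS, ERO1A, where 28.5% of all genes fell. At OMM edgeR called none, and DESeq2 called ERO1A and QSOX1 higher. ERO1A, which reoxidizes P4HB, had 41.6 and 46.1 CPM in NLS labelled libraries, against 151 and 130.4 CPM in NLS controls (-1.68 ± 0.12), and 149 and 164 CPM in OMM labelled libraries, against 75.3 and 103 CPM in OMM controls (0.81 ± 0.28, adjusted p = 0.34). Its relative ERO1B was at 0.28 at NLS without a call. QSOX1 had 20.7 and 18.7 CPM in NLS labelled libraries, against 20.6 and 26.0 CPM in NLS controls, and 80.6 and 78.8 CPM in OMM labelled libraries, against 31.3 and 31.4 CPM in OMM controls (1.35 ± 0.37, adjusted p = 0.22). QSOX2 had 57.1 and 59.9 CPM in NLS labelled libraries, against 52.7 and 55.5 CPM in NLS controls, and 84.2 and 36.4 CPM in OMM labelled libraries, against 41.3 and 26.5 CPM in OMM controls. QSOX1 overlapped at NLS and was apart at OMM, while QSOX2 was above its controls at NLS by a difference that was not called (0.11 ± 0.11) and overlapped at OMM.

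Of the 6 prolyl isomerases, 5 fell at NLS. PPIB, cyclophilin B, had 98.7 and 80.6 CPM in NLS labelled libraries, against 253 and 271 CPM in NLS controls (-1.54 ± 0.12), and 318 and 272 CPM in OMM labelled libraries, against 426 and 434 CPM in OMM controls (-0.54 ± 0.20, adjusted p = 0.37). FKBP2 had 5.74 and 4.36 CPM in NLS labelled libraries, against 17.1 and 15.3 CPM in NLS controls (-1.67 ± 0.26). At OMM it had 6.71 and 8.30 CPM in labelled libraries, against 29.5 and 33.8 CPM in controls (-2.08 ± 0.62, adjusted p = 0.25), the lowest member there. PPIB and FKBP2 were thus below their controls at both sites, and DESeq2 called both lower at OMM. FKBP9 fell by 0.63 at NLS by edgeR and was not called there by DESeq2. At OMM it stood at 1.56, called higher by DESeq2 and not by edgeR.

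All 4 calcium binders with EF hands fell at NLS. CALU (calumenin, chr7:128739292-128771807, plus strand) had 147 and 150.3 CPM in NLS labelled libraries, against 408 and 361 CPM in NLS controls. In OMM labelled libraries it had 1304 and 1059 CPM, against 314 and 345 CPM in OMM controls. The groups were apart at both sites, with -1.37 ± 0.10 at NLS (adjusted p = 2.9e-05) and 1.84 ± 0.20 at OMM (adjusted p = 0.026), the highest value of the 46 there. Its relatives were lower at OMM, at 0.73 for RCN1, -0.47 for RCN2 and -0.62 for SDF4, a calcium binder of the Golgi. EdgeR called none of these 3, and DESeq2 called RCN1 higher. The count of CALU over those of RCN1 and RCN2 was 0.891 and 0.909 in NLS labelled libraries, against 1.20 and 1.04 in NLS controls, and 3.23 and 2.94 in OMM labelled libraries, against 0.922 and 1.12 in OMM controls. The lumenal member CALU thus had an OMM effect as high as that of CANX, with 8 hydrophobic codons in its later window against 14.

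Of the 3 chaperones of receptor clients, MESD fell at NLS, with 86.1 and 85.03 CPM in labelled libraries, against 112 and 119 CPM in controls (-0.43 ± 0.10, adjusted p = 0.0068). With library size alone its value was 0.09. At OMM it had 195 and 141 CPM in labelled libraries, against 111.0 and 119 CPM in controls, without overlap and without a call by edgeR or DESeq2. CNPY2 and CNPY3 were not called at either site by edgeR, and DESeq2 called CNPY2 lower at OMM.

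The labelling effect differed between the sites in 26 members by edgeR, each of the 26 lower at NLS than at OMM, where 6.73% of 23178 genes were called lower and 1.41% higher. These were all 5 transmembrane members, 20 of the 37 lumenal ones and 1 of the 4 other membrane-spanning ones, QSOX1. The median difference was -1.91 for the transmembrane members, -1.46 for the lumenal members and -0.90 for the other membrane-spanning ones. Of 14598 protein-coding genes 1536 were called lower and 218 higher, with a median of -0.40. The difference was not particular to ER genes. Of the cytosolic and matrix relatives described below, 10 of 13 and 4 of 8 were called lower, with medians of -1.55 and -1.11. EdgeR called no member higher at NLS, the highest being SDF2 at 1.39 (adjusted p = 0.22). DESeq2 called 26 members lower and 3 higher, CNPY2, PDIA5 and SDF2, where 9.85% and 11.1% of 20207 genes were called. With at least 10 counts in every library edgeR called 22 lower and CNPY2 higher. Without either one of the NLS control libraries 0 members and 0 genes in all were called, and without the deeper or the shallower NLS labelled library 13 and 10 members were called, while the median over the 46 members stayed between -1.58 and -1.38 when any 1 library was left out.

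The wider ER folding pathway was taken from a second list. Of 37 genes that trim and read glycans, retrieve residents, move calcium, sense stress or serve procollagen, 20 fell and 4 rose there, with a median of -0.59, and edgeR called none at OMM, where 31 were positive and the median was 0.46. DESeq2 called 9 of the 37 higher and none lower at OMM, among them GANAB and UGGT1. The KDEL receptor KDELR1, which retrieves lumenal residents from the Golgi, fell by 2.27, the most of the list, and all 3 KDEL receptors fell. The 4 that rose were ITPR1, an ER calcium channel, UGGT2 and MAN1B1, which act on glycans, and ERN1, the stress sensor IRE1, with ITPR1 highest at 1.24. The glucosyltransferase UGGT1 and the glucosidase subunit GANAB stood at 1.73 and 1.57 at OMM without passing edgeR's threshold (adjusted p = 0.084 and 0.055).

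Relatives outside the ER were also lower at NLS, and their medians were below 0 at OMM. All 13 cytosolic relatives fell at NLS (median -1.67), and at OMM edgeR called none, DESeq2 called FKBP1A higher, and the median was -0.22. HSPA8, the constitutive cytosolic Hsp70, had mean levels of 698 CPM in NLS labelled and 2509 CPM in NLS control libraries (-1.85), and 2059 CPM in OMM labelled and 2564 CPM in OMM control libraries (-0.32). Of the 8 relatives in the mitochondrial matrix 7 fell at NLS (median -1.32), and the OMM median was -0.30, with HSPE1 called lower there by DESeq2. By family, the Hsp70 proteins of cytosol, matrix and ER lumen (HSPA8, HSPA9 and HSPA5) stood at -0.32, -0.35 and 0.79 at OMM. The Hsp90 proteins HSP90AB1, TRAP1 and HSP90B1 stood at -0.17, 0.28 and 0.11, and the cyclophilins PPIA, PPIF and PPIB at -0.49, 0.02 and -0.54. EdgeR called none of these 9 at OMM, and DESeq2 called HSPA5 higher and PPIB lower.

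**Figure D4:**
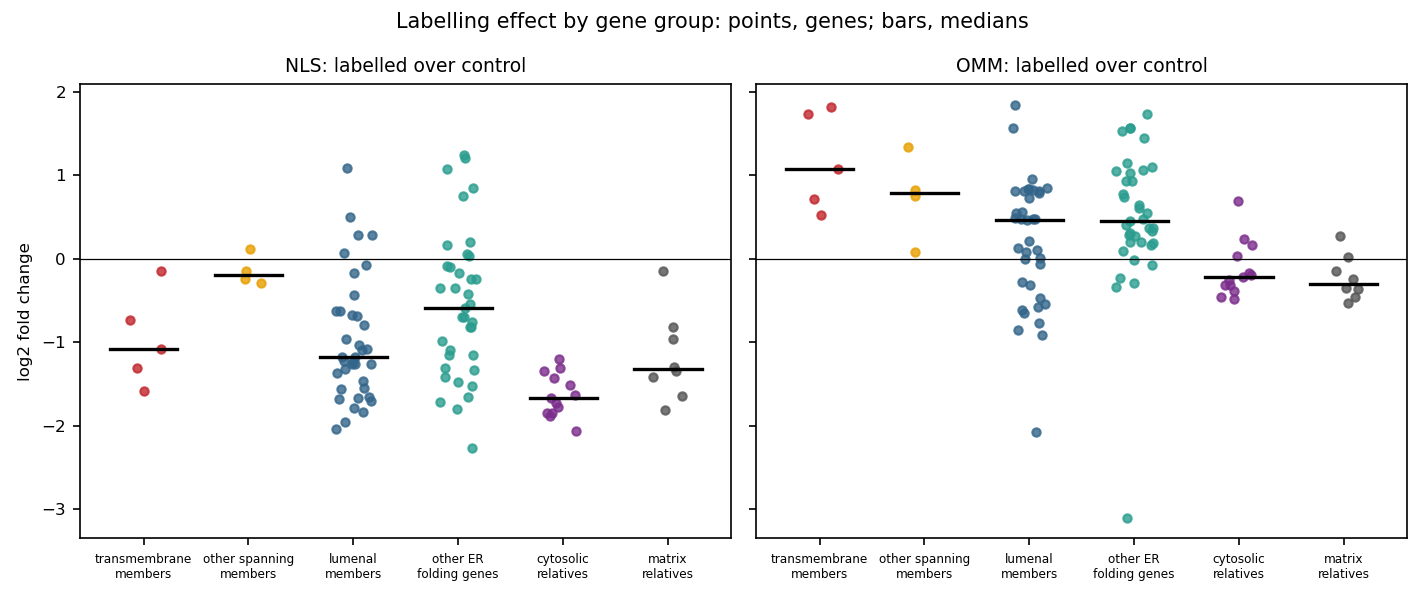
The log2 fold change of labelled over control (y axis) is drawn for each gene of 6 groups (x axis) at NLS (left) and OMM (right), with points for genes and bars for medians. At OMM the 3 groups of members and the other ER folding genes have medians of 0.46 to 1.08, and the cytosolic and matrix relatives have medians of -0.22 and -0.30.

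Among the 46 members the OMM effect was higher for longer transcripts. Spearman's rho with the OMM log2 fold change was 0.70 for the length of the principal transcript, 0.66 for that of the 3' untranslated region, 0.53 for coding length and 0.49 for the hydrophobic codons of the later window. Over 12160 protein-coding genes rho was 0.32 for transcript length and 0.18 over the 12130 with a later window. These are descriptions across genes that share libraries, not independent points. The transmembrane members have the longer transcripts, with a median of 4260 bases against 2603 for the lumenal ones, so topology and length move together. Among transcripts of at least 3000 bases the OMM median was 1.41 for 4 transmembrane members, 0.83 for 3 other membrane-spanning members, 0.81 for 12 lumenal members and 0.26 for 6369 protein-coding genes. Among shorter ones it was 0.01 for 25 lumenal members and -0.23 for 5791 protein-coding genes, with TMX2, the 1 transmembrane member, at 0.53. In both length classes the transmembrane members thus lay above the lumenal ones, with TMX2 alone in the short class. The part of length in the contrast was not tested beyond this split.

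**Figure D5:**
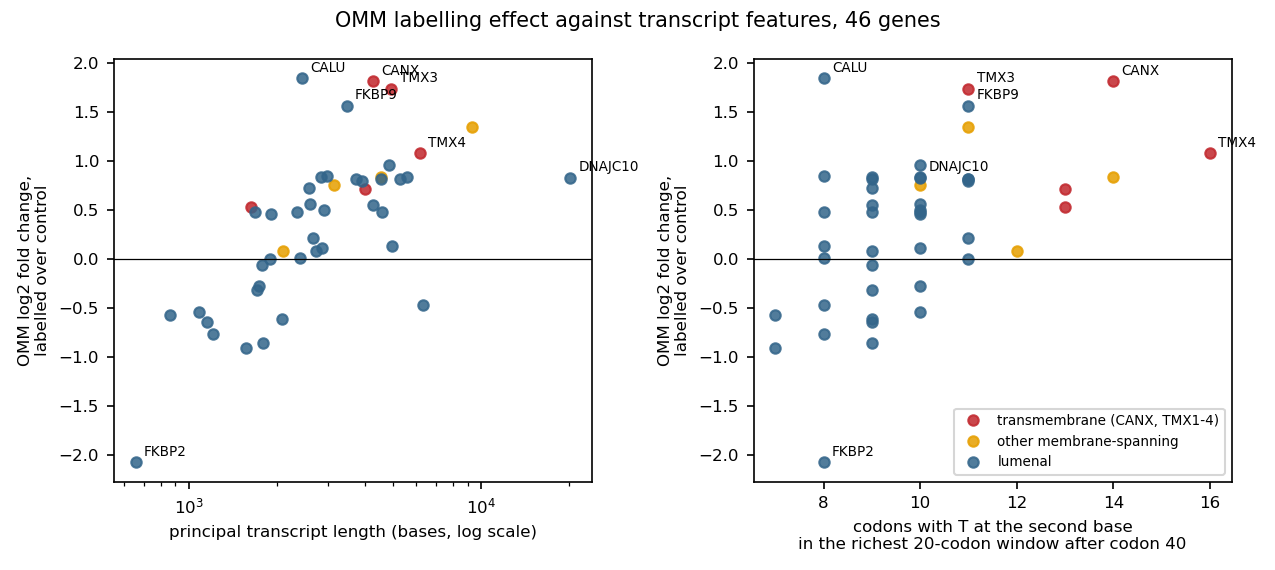
The OMM log2 fold change of labelled over control (y axis) is drawn against the length of the principal transcript (left, log scale) and the number of hydrophobic codons in the richest later window (right) for the 46 members, with colours for topology. FKBP2, the shortest transcript at 657 bases, is lowest at -2.08, and CALU at 1.84 combines a short transcript with 8 such codons.

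At NLS rho was 0.00 for transcript length and 0.20 for the span of the gene, introns included, against 0.14 and 0.23 over 13491 protein-coding genes. The 17 members whose genes span at least 40 kb had a median of -0.63, with 10 lower and 1 higher, and the 29 shorter ones a median of -1.17, with 23 lower. For protein-coding genes the same split gave -0.08 and -0.45. Across the 46 members the NLS and OMM effects had a rho of -0.20.

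A minority of the promoters carry a feature of the unfolded protein response. The ER stress element, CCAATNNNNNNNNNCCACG, was searched on both strands from 250 bases before to 50 bases after the transcription start in RefSeq's GRCh38.p14 promoters, of which 41 members had one. It was found in 6 of these 41 (14.6%), namely HSPA5, HSP90B1, CANX, CALR, PDIA6 and ERO1B, and in 27 of 35116 promoters in all (0.0769%). The matches in the promoters of BiP and calreticulin are shown because they are lumenal partners of the 2 chaperone cycles; capitals mark the fixed letters of the element.
HSPA5: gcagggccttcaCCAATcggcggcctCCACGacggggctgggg
CALR: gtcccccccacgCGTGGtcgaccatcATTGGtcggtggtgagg
The HSPA5 stretch is chr9:125241379-125241421 on the minus strand. That of CALR is chr19:12938372-12938414 on the plus strand, where the element is read from the other strand. The 6 members with the element had medians of -1.65 at NLS and 0.48 at OMM, and the 35 without it -1.08 and 0.53. A match is a run of letters and not a measured binding site.

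Levels per kilobase of exon gave the order of abundance. In NLS labelled libraries HSP90B1 stood at 96.3 CPM per kb, CALR at 94.7 and CANX at 86.3, and in NLS controls CALR was highest at 340, with HSP90B1 at 266 and CANX at 260. In OMM labelled libraries CANX was highest at 762 CPM per kb, followed by CALR at 442 and HSPA5 at 316. In OMM controls CALR was highest at 321, followed by PPIB at 225, CANX at 217 and HSP90B1 at 202, and QSOX1 was lowest at 3.37. These are group means without a test between genes.

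Annotation limits some of these values. Of the 46 genes 33 overlap another annotated gene and 7 overlap a protein-coding gene on the same strand: PDIA5, TXNDC5, TXNDC12, TMX2, DNAJB11, CNPY2 and RCN1. CANX, CALU and HSPA5 are not among these 7.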

How the data were processed

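RNA recovered by APEX-seq was measured in 8 libraries, 2 labelled and 2 control at each of NLS and OMM. The authors deposited whole-number counts per gene and a table of log2 fold changes with p-values for each site. The submitters' processing notes list the builds hg38 and GRCh38.p13, with Trimmomatic, STAR, HTSeq, DESeq2, SAMtools and bedtools as tools. The strand setting and tool versions were not given in the sources used here. Counts were fitted per site with edgeR 4.0.16 in R 4.3.3 (limma 3.58.1): filterByExpr with a minimum count of 10, TMM scaling, robust quasi-likelihood F test, Benjamini-Hochberg adjustment over all tested genes, threshold 0.05, two-sided. SE is the size of the log2 fold change over the square root of F. The difference between sites is the interaction in a joint fit of all 8, with 1 dispersion trend shared by both sites. DESeq2 1.42.0 was run as an alternative, and the deposited log2 fold changes lay within 0.01 of its values for 100% of the genes compared. Whether the deposited p-values were adjusted is not stated. The procedure was checked on simulated counts.

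Columns were matched to groups by name, and their numbers differ from those of the sample titles. A further 6 columns of values (4 of counts) matched no sample and were not used. Replicates of a group differed by more than sampling noise. Totals of 8039176 to 52421161 counts put a floor of 3 counts at 0.0567 to 0.312 CPM. The SE includes the spread between libraries of a group, while the floors cover counting error only. Transcript features came from GENCODE 29 and promoters from RefSeq (GRCh38.p14), with 41 of 46 members matched. The members and the other lists were chosen with earlier results of these data known. Values in every library were given for membrane-spanning members, those called at OMM or higher at NLS, the lowest at NLS and the most abundant of each role, and CALR, which was added as the partner of CANX. Alternatives tried were another scaling or tool, other filters, no robust estimation, leaving out each library and a replicate block.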

Additional observations from a re-analysis of the deposited data

Results flagged for a closer look

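For 26 members the labelling effect at NLS differed from that at OMM by the interaction test, and each stands out for that reason alone. By the same test 10 of 13 cytosolic and 4 of 8 matrix relatives were also lower at NLS. The values are the effect at NLS minus the effect at OMM on the log2 scale. They come from the joint fit, whose 1 dispersion trend for both sites may understate the spread at OMM. The lectin cycle gave CANX (-3.43), PDIA3 (-2.79) and CALR (-2.34). The Hsp70 cycle gave HSPA5 (-2.86), DNAJC3 (-2.12), HYOU1 (-2.01), HSP90B1 (-1.60) and DNAJC10 (-1.48). Of the disulfide isomerases, the membrane-anchored ones were TMX4 (-2.41), TMX3 (-1.91), TMX1 (-1.82) and TMX2 (-1.29) and the lumenal ones TXNDC5 (-2.44), ERP44 (-2.31), PDIA6 (-2.21), PDIA4 (-1.76), SELENOF (-1.74), P4HB (-1.68) and TXNDC12 (-1.30). The oxidases were ERO1A (-2.52) and QSOX1 (-1.61), the prolyl isomerases FKBP7 (-2.51), FKBP9 (-2.21) and PPIB (-1.02) and the calcium binders CALU (-3.24) and RCN1 (-1.78). Site, kit and RNA selection coincide in these values and cannot be told apart, and none of the 26 calls held when either NLS control library was left out.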

How the results depend on the processing

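The 33 members lower at NLS stayed within 27 to 36 under every alternative. Other counts moved. Members higher at NLS numbered 4 with at least 10 counts in every library, 9 with library size alone, 6 with protein-coding genes only, and 1 to 3 with 1 library left out. Members higher at OMM numbered 16 by DESeq2, 5 with no filter, 0 without robust estimation, and 3 to 7 with 1 library left out. Members lower at OMM numbered 3 by DESeq2 (CNPY2, FKBP2 and PPIB) and 0 to 1 with 1 library left out. The 26 differences between sites, all lower at NLS, became 26 lower and 3 higher (CNPY2, PDIA5 and SDF2) by DESeq2, 22 lower and 1 higher (CNPY2) with at least 10 counts in every library, 15 with library size alone and 0 to 27 with 1 library left out, the 0 coming from either NLS control. The transmembrane median at NLS was -0.91 with at least 10 counts in every library, -0.56 with library size alone, -0.81 with protein-coding genes only, -0.29 over all 9 membrane-spanning members, and -1.11 to -0.99 with 1 library left out. The lumenal median at NLS was -1.01, -0.66 and -0.90 under the first 3 of these, and at OMM it was 0.14 to 0.53 with 1 library left out. The transmembrane median at OMM was 0.83 to 1.302 with 1 library left out. The cause was not tested.

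Some values changed sign. With library size alone CNPY3, TMX3 and FKBP10 were called higher at NLS, and MESD, lower before, was not called. At NLS with library size alone the values that changed sign were CNPY3 (0.45), DNAJC1 (0.38), TMX3 (0.37), FKBP10 (0.35), QSOX1 (0.28), TXNDC11 (0.23) and MESD (0.088). With protein-coding genes only they were CNPY3 (0.20), DNAJC1 (0.13), TMX3 (0.12), FKBP10 (0.10) and QSOX1 (0.031), and with at least 10 counts in every library CNPY3 (0.10), DNAJC1 (0.025) and TMX3 (0.016). At OMM they were SELENOF (0.021) with library size alone, SIL1 (-0.010) and TXNDC12 (-0.0011) with at least 10 counts in every library, and SIL1 (-0.018) and TXNDC12 (-0.0093) with protein-coding genes only. With 1 library left out the NLS values ran from -0.0024 to 0.17 for CNPY2, -0.12 to 0.031 for CNPY3 and -0.29 to 0.0098 for DNAJC1. The OMM values ran from -0.82 to 0.069 for CNPY3, -1.35 to 1.38 for DNAJB9, -0.20 to 0.44 for DNAJC1, -0.77 to 1.14 for ERO1B, -0.64 to 0.24 for ERP29, -0.19 to 0.54 for FKBP10, -0.015 to 0.29 for FKBP14, -0.056 to 0.30 for HSP90B1, -0.19 to 0.078 for SELENOF, -0.83 to 0.53 for SIL1 and -0.17 to 0.22 for TXNDC12.

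With a replicate block at NLS 34 members were lower and 1 higher, and the medians were -1.08 for transmembrane and -1.20 for lumenal members. Libraries with the same number were not seen to deviate together (correlation of deviations -0.0222). With 2 libraries a group this is a single comparison, which cannot settle whether they share a culture or batch. No paired analysis was possible at OMM because its arms share fewer than 2 numbers. Where 1 library of an arm was left out, the lone library was assumed to vary like the others.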
